A study of Mus musculus with 6 samples.

Results

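Nuclear genes for respiratory complexes II to V were followed in whole mouse kidney, in 3 wild-type libraries and 3 libraries labelled Hspa8 knockout. The genes were taken by symbol alone: Sdha to Sdhd for complex II, the Uqcr genes and Cyc1 for complex III, Cycs for cytochrome c, the Cox genes numbered 4 to 8 for complex IV and the Atp5 genes for complex V, without pseudogene symbols. This gave 49 of the 34714 genes in the table, 4 in complex II, 9 in complex III, 18 in complex IV and 17 in complex V, with Cycs as the remaining one. Levels are in FPKM, a fragment count divided by transcript length and library size. Of the 49 genes, 45 had a mean of at least 1 FPKM and were tested. The others, Cox4i2, Cox7b2, Cox8b and Cox8c, are described by level only.

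All mice were 8 weeks old and ate normal chow. Wild-type samples carry C57 in their titles, and the protocol names C57BL/6J mice. For the knockout it names Hspa8flox/flox mice, made in C57BL/6J, and Cdh16-Cre mice from a different supplier than the C57BL/6J animals; Cdh16 is a gene of kidney tubule epithelium. The sample labels do not spell out the alleles of each knockout animal, and floxed allele, Cre, supplier and loss of Hspa8 cannot be told apart in this design. Nor do the labels state that each library is a different animal, and the p-values therefore describe the spread among these libraries, which may be technical.

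The respiratory chain passes electrons from fuel to oxygen across the inner mitochondrial membrane. Complex II, also an enzyme of the citric acid cycle, hands electrons from succinate to ubiquinone, complex III passes them to the mobile carrier cytochrome c, and complex IV gives them to oxygen. Complexes III and IV pump protons, and complex V, the ATP synthase, lets protons flow back through a ring in the membrane to drive ATP synthesis in its F1 head. Kidney tubules are rich in mitochondria because their salt transport consumes much ATP.

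Hspa8 encodes the constitutive chaperone HSC70 and served to check the labels: its range was 1058 to 1318 FPKM in the wild type and 650.1 to 781 FPKM in the knockout, 61.4% of the wild-type mean, with no overlap (exact two-sided permutation p = 0.1, the smallest that 3 against 3 libraries allow). Umod, a thick limb marker, at 762 to 1272 FPKM, and Lrp2, a proximal tubule marker, at 102 to 181 FPKM, fitted the labelled tissue. Red blood cell markers, 7 of 7 listed, summed to 52.1 to 59.9 FPKM in the wild type and to 77.6 to 553 FPKM in the knockout. On the first principal component, with 47.5% of the variance, wild-type replicate 3 was highest (0.717), followed by knockout replicate 2 (0.331) and wild-type replicate 2 (0.00659), and the other libraries lay between -0.416 and -0.314. Deviations from the group means correlated at 0.550 between wild-type replicate 3 and knockout replicate 2, and the group comparison is also given without these libraries, a choice made after the values were seen. Read totals cannot be had from FPKM, and the depth of the libraries is unknown.

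No gene of complexes II to V passed the test between knockout and wild-type kidney. limma called 0 of the 45 genes at an adjusted p under 0.05, as it called 0% of all 12174 genes tested. The smallest adjusted p among the 45 was 0.973 (limma), and 0 of them reached an unadjusted p under 0.05, against 5.17% of all tested genes. All 3 knockout values lay above all 3 wild-type values in 0 of the 45 genes (2.01% of all tested genes) and below them in 0 (8.57% of all tested genes). The groups thus overlapped in each of the 45 genes. In whole tissue, fewer cells of a type and less RNA per cell cannot be told apart, and this holds for every level given here.

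The estimates lay near 0. On the log2(FPKM + 1) scale the differences, knockout minus wild type, ran from -0.30 (Atp5d) to 0.21 (Cox6b2), with a median of -0.0194, 17 above 0 and 28 below. Over all tested genes the median difference was -0.0399 and 35.1% lay above 0. Scaling turned the sign of the median: with library sums equalised it was 0.0253 with 29 of the 45 above 0 (64.4%, against 49.8% of all genes), and with library medians equalised it was 0.0371 with 30 above 0 (66.7%, against 53.5%). The 95% confidence intervals, each for 1 gene and not adjusted for their number, all lay between -0.68 (Atp5d) and 0.57 (Cox6b2), folds of 0.625 and 1.48 in FPKM + 1. For a gene as low as Cox6b2 this understates the fold of the level, and with a pseudocount of 0.1 the highest limit was 0.69 on the log2 scale. Smaller changes than that could be present without being detectable in these 6 libraries. The test did not call Hspa8 itself either, at a log2 difference of -0.70 (limma adjusted p = 0.866). The lack of calls alone therefore sets no limit on the size of a change.

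**Figure D1:**
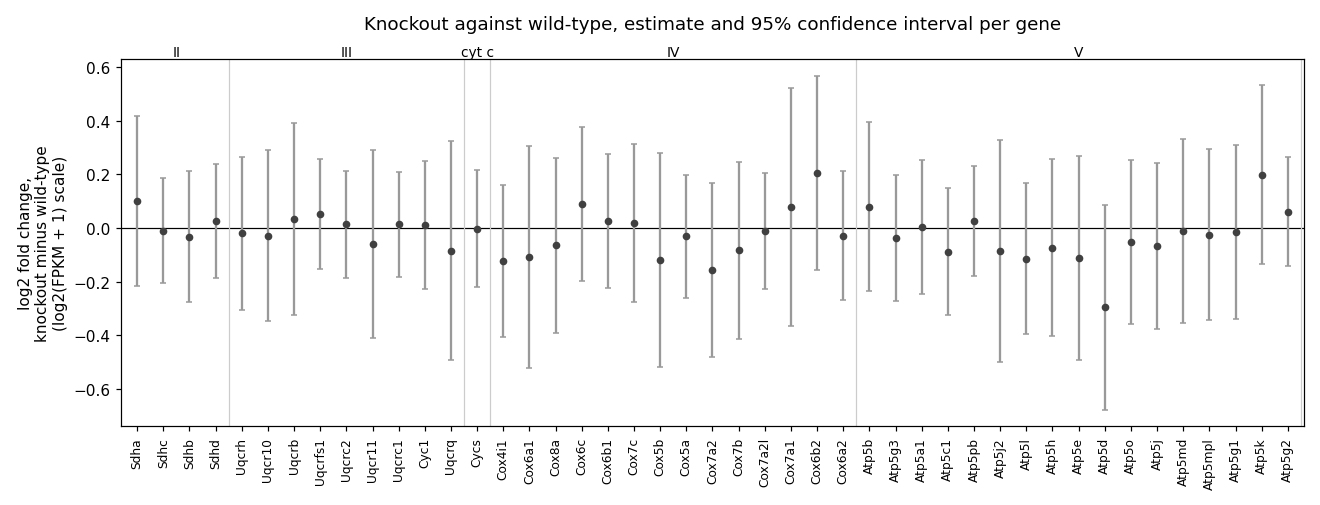
Difference between knockout and wild type in log2(FPKM + 1) for each of the 45 tested genes, grouped by complex, with limma estimates as points and 95% confidence intervals as bars (3 libraries a group). Every bar crosses 0; Atp5d is lowest at -0.30 and Cox6b2 highest at 0.21.

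FPKM are per length, so levels can be set side by side between genes, though only roughly. Effects of length that remain and shared reads, both described below, were not corrected in these levels. The median of the tested genes' mean level was 246 FPKM in complex II, 216 FPKM in complex III, 312 FPKM in complex IV and 312 FPKM in complex V, and Cycs had a mean of 114 FPKM. Atp5b was highest with a mean of 1258 FPKM over the 6 libraries, before Cox4i1 with 866 FPKM and Atp5g3 with 844 FPKM. The 49 genes made up 3.42% to 3.77% of all FPKM in the wild type and 3.49% to 3.80% in the knockout. These ranges overlap.

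**Figure D2:**
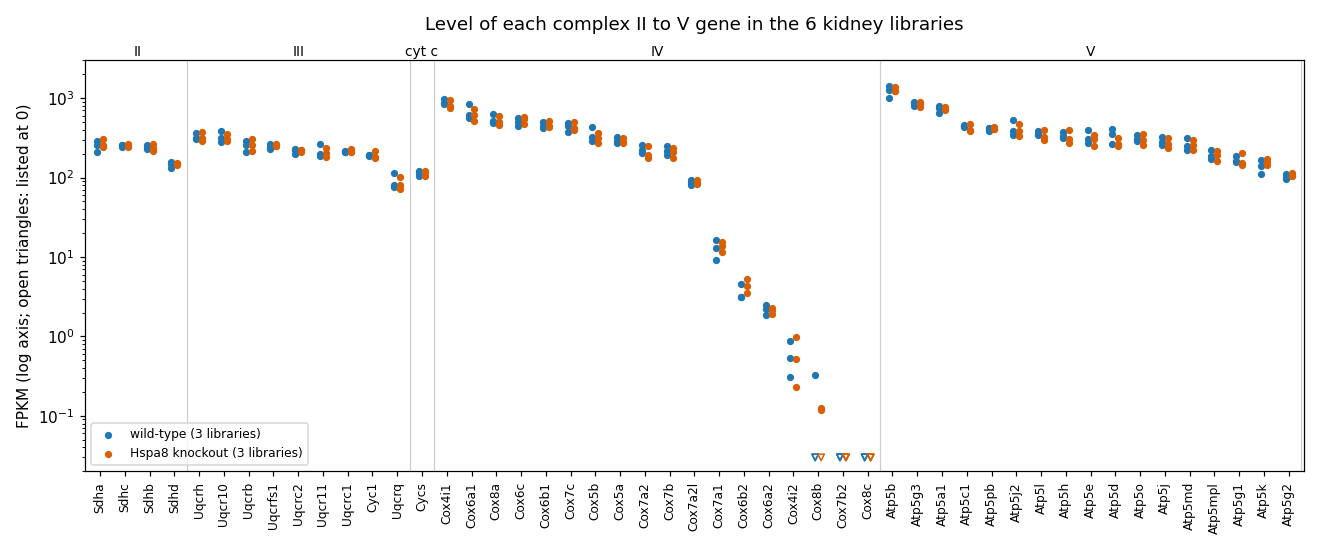
Level of each of the 49 genes in each of the 6 libraries, in FPKM on a log axis, grouped by complex and coloured by group. The groups overlap throughout, and the isoforms restricted to other tissues lie far below the rest, from a mean of 13.2 FPKM for Cox7a1 down to 0 for Cox7b2 and Cox8c.

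Respiratory genes have many processed pseudogenes, and some reads fit more than one gene. Of the 49 genes, 18 shared at least 1 stretch of 75 transcript bases with another GENCODE gene and 31 shared none. The share of such stretches exceeded 25% in 8 genes: 86.9% in Atp5g2, 63.4% in Atp5l, 59.6% in Atp5g1, 50.4% in Cox7c, 40.3% in Atp5h, 34.7% in Atp5md, 29.1% in Uqcrb and 26.1% in Cycs. The levels of these 8 are uncertain, since the rule by which the authors placed shared reads is not known here. In addition, 16 genes overlap another RefSeq gene, such as Atp5d with Cbarp and Atp5j with Gabpa.

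Promoter sequence was compared because NRF1, a transcription factor known to drive nuclear respiratory genes, binds a GC-rich palindrome. Its letters, GCGCA and GCGC with 1 base of any kind between them, were sought on both strands in the 250 bases before each RefSeq start site (GRCm38.p6). They stood in 7 of the 37 genes with such a window (18.9%) and in 5.84% of 17491 protein-coding genes. The 7 were Sdha and Sdhd of complex II, Cox6a1 of complex IV and Atp5c1, Atp5g2, Atp5h and Atp5k of complex V. The sites are shown to let the same element be read in genes of different complexes. Each is written 5′ to 3′ on the gene's own strand, which is the minus strand in all of them, with the matched letters in capitals and 10 bases on either side. Sdha had 3 sites, beginning 98, 55 and 10 bases before its start, and Cox6a1 had 2, beginning 162 and 117 bases before.
Sdha chr13:74350319-74350348: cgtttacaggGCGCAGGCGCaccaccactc
Sdha chr13:74350276-74350305: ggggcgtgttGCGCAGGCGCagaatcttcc
Sdha chr13:74350231-74350260: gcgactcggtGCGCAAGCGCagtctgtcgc
Sdhd chr9:50603909-50603938: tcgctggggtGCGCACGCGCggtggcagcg
Cox6a1 chr5:115349101-115349130: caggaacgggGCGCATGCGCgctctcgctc
Cox6a1 chr5:115349056-115349085: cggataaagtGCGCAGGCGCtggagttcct
Atp5c1 chr2:10080430-10080459: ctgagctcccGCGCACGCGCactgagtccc
Atp5g2 chr15:102671070-102671099: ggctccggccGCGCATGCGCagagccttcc
Atp5h chr11:115420041-115420070: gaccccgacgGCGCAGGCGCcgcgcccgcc
Atp5k chr5:108434430-108434459: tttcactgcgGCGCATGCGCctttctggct
A match describes letters and is no evidence of binding. The element of estrogen-related receptors, TCAAGGTCA, stood in Atp5g3 (2.70% of the 37, against 0.36% of protein-coding genes), in reverse on the gene's strand.
Atp5g3 chr2:73911360-73911388: tgttacaaagTGACCTTGAgcgtcttccc
The GABPA element, CCGGAAGT, stood in Atp5h, Uqcr11 and Uqcrh (8.11%, against 4.26%).

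In complex II, the genes did not share one order of libraries. Sdha, the flavoprotein that oxidises succinate, stood at 287, 259 and 209.8 FPKM in wild type against 259, 245 and 303 FPKM in knockout. Here and below, values are in the order of replicates 1, 2 and 3. Its lowest library was wild-type replicate 3 and its highest knockout replicate 3. The log2 difference was 0.10 (SE 0.138, 95% confidence interval -0.22 to 0.42, limma adjusted p = 0.998). Sdhb, the iron-sulfur protein that carries the electrons onward, stood at 227, 244 and 259 FPKM in wild type against 234, 265 and 215 FPKM, a log2 difference of -0.03. Here knockout replicate 3, the highest library for Sdha, was the lowest.

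Sdhc and Sdhd anchor the enzyme in the membrane. Sdhc stood at 244, 256 and 258 FPKM in wild type against 249.8, 264 and 239.8 FPKM. Sdhd stood at 157, 147 and 133 FPKM in wild type against 144, 151 and 149 FPKM. Both overlapped between the groups. The complex II median log2 difference was 0.0077, with 2 genes above 0 and 2 below. Equalising library medians gave 0.0642, and leaving out wild-type replicate 3 together with knockout replicate 2 gave -0.0417.

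Complex III had a steady core and more variable small subunits. Uqcrfs1, the Rieske iron-sulfur protein, stood at 262, 243 and 229 FPKM in wild type against 249.7, 262 and 249.7 FPKM, so every knockout value lay inside the wild-type range. Its log2 difference was 0.05 (SE 0.0891, limma adjusted p = 0.998), the smallest p of the complex. Cyc1, cytochrome c1, stood at 193, 184 and 192 FPKM in wild type against 183, 218 and 176 FPKM. The core proteins were nearly level: the wild-type mean of Uqcrc1 was 212 ± 4.26 FPKM and its knockout mean 214 ± 11.6 FPKM (SD, n = 3 each). Uqcrc2 had 215 ± 13.1 FPKM and 217 ± 4.84 FPKM (SD, n = 3 each).

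The small subunits moved together across libraries of both groups. Uqcrh, the hinge protein next to cytochrome c1, stood at 303, 319 and 361 FPKM in wild type against 314, 373 and 286 FPKM. Uqcr10 stood at 282, 312 and 384 FPKM in wild type against 309, 358 and 287 FPKM. Uqcrq, the least abundant gene of the complex, stood at 75.9, 80.6 and 114.5 FPKM in wild type against 81.2, 100.2 and 72.05 FPKM, with a log2 difference of -0.09 (SE 0.178). In all 3, the highest libraries were wild-type replicate 3 and knockout replicate 2. Uqcrb and Uqcr11 had the same pair on top. The median log2 difference over the 9 genes was 0.0114, with 5 above 0 and 4 below.

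Cycs, cytochrome c itself, stood at 121, 115 and 105 FPKM in wild type against 119, 116 and 105 FPKM. Both groups had a mean of 114 FPKM, with an SD of 8.23 in wild type and 7.30 in knockout (n = 3 each). The interval of its log2 difference ran from -0.22 to 0.22, folds of 0.858 to 1.16. Larger changes lay outside that interval.

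Complex IV has subunits that come as isoforms, a common one and one or more restricted to certain tissues, and the common ones made up nearly all of the transcript in kidney. Cox4i1, the common form of subunit 4, stood at 838, 880.5 and 989 FPKM in wild type against 785, 955 and 751 FPKM, a log2 difference of -0.12 (SE 0.123, limma adjusted p = 0.998). Cox4i2, best known from lung, stood at 0.537, 0.309 and 0.883 FPKM in wild type against 0.517, 0.971 and 0.23 FPKM. It was at most 0.102% of the pair in any library.

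Cox6a1, the common form of subunit 6a, stood at 557, 620 and 836 FPKM in wild type against 613, 731 and 516 FPKM. Cox6a2, the form of heart and skeletal muscle, stood at 1.89, 2.18 and 2.46 FPKM in wild type against 2.26, 2.17 and 1.90 FPKM, 0.293% to 0.368% of the pair. The common form outnumbered it in every library. Cox6b1 stood at 425, 441 and 501 FPKM in wild type against 440.5, 511 and 439 FPKM. Cox6b2, the testis form, stood at 3.17, 3.17 and 4.59 FPKM in wild type against 4.29, 5.23 and 3.52 FPKM. Its log2 difference was the highest of the 45 genes, 0.21 (SE 0.157, limma adjusted p = 0.998), yet wild-type replicate 3 exceeded knockout replicates 1 and 3. Leaving out wild-type replicate 3 gave 0.35 and leaving out knockout replicate 2 gave 0.09 (limma adjusted p = 0.996 and 0.878). Its share of the pair was 0.788 ± 0.106% in wild type and 0.924 ± 0.115% in knockout (SD, n = 3 each).

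Only for subunit 7a did a restricted isoform reach several percent of its set. Cox7a2 stood at 224, 207 and 254 FPKM in wild type against 193, 247 and 177 FPKM, a log2 difference of -0.16 (SE 0.141, 95% confidence interval -0.48 to 0.17). It was -0.30 without knockout replicate 2 and -0.06 without knockout replicate 3 (limma adjusted p = 0.667 and 0.9999). Cox7a1, the form of muscle and brown fat, stood at 9.22, 13.2 and 16.5 FPKM in wild type against 13.7, 15.3 and 11.4 FPKM. It had the widest spread within a group of the 45 genes (SD 0.392 on the log2 scale), and its knockout values lay inside the wild-type range. Cox7a1 was 5.36 ± 1.21% of the pair in wild type and 6.18 ± 0.430% in knockout (SD, n = 3 each). Cox7a2l, a gene with a related symbol, stood at 93.6, 87.6 and 81.5 FPKM in wild type against 82.2, 93.3 and 85.03 FPKM.

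Cox8a, the common form of subunit 8, stood at 488, 512 and 636 FPKM in wild type against 502, 603 and 457 FPKM. Cox8b, a form of muscle and brown fat, was listed at 0 in wild-type replicates 1 and 2 and knockout replicate 1 and had 0.323 FPKM in wild-type replicate 3, 0.125 FPKM in knockout replicate 2 and 0.119 FPKM in knockout replicate 3. Cox8c and Cox7b2, both testis forms, were listed at 0 in all 6 libraries.

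Markers of the tissues that use these restricted forms were looked up. The 12 muscle markers, all listed, summed to 4.50, 6.92 and 19.1 FPKM in wild type against 7.43, 7.02 and 8.46 FPKM, with Actc1 at 0 throughout. Wild-type replicate 3, the highest of them, was also the highest library for Cox7a1, Cox6a2 and Cox8b. It was the highest for 19 of the 45 tested genes, the common forms Cox6a1 and Cox7a2 among them. As a share of its set, Cox8b was highest in wild-type replicate 3 (0.0507%) but Cox6a2 was lowest there (0.293%). The share of Cox7a1 was highest in knockout replicate 1 (6.66%). The 7 brown fat markers, all listed with 2 at 0 throughout, summed to 20.1, 16.9 and 13.6 FPKM in wild type against 17.8, 12.4 and 17.96 FPKM, nearly all of it Ppara, which is also on the list of biogenesis regulators. The defining marker Ucp1 was at 0.217 FPKM in wild-type replicate 3 and at 0.0249 FPKM or less in every other library. Cidea, Dio2 and Otop1 were also highest in wild-type replicate 3, at 0.194 FPKM or less. White fat markers other than Lpl were highest in that library too, with Cfd at 15.1 FPKM and Adipoq at 2.30 FPKM. Of 7 testis markers, 5 were at 0 in all libraries, the protamine genes Prm1 and Prm2 among them. The part of other tissue in the levels of the restricted forms was not tested.

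Among the remaining complex IV genes Cox5a, Cox5b, Cox6c, Cox7b and Cox7c, the mean over all libraries ran from 213 FPKM (Cox7b) to 518 FPKM (Cox6c). The median log2 difference over the 14 tested genes was -0.0295, with 5 above 0 and 9 below.

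Complex V held the most abundant gene and the smallest p-values. Atp5b, the catalytic beta subunit of the F1 head, stood at 1403, 1270 and 1011 FPKM in wild type against 1244, 1232 and 1389 FPKM, a log2 difference of 0.08 (SE 0.137). Atp5a1, the alpha subunit, stood at 808, 755 and 648 FPKM in wild type against 713, 733 and 763 FPKM. Both were lowest in wild-type replicate 3. Atp5d, the delta subunit of the central stalk, stood at 264, 353 and 408 FPKM in wild type against 267, 311 and 248 FPKM. Its highest library was wild-type replicate 3, and wild-type replicate 1 lay below knockout replicates 1 and 2. The log2 difference of -0.30 (SE 0.166, 95% confidence interval -0.68 to 0.09) was the lowest of the 45 genes, with a limma adjusted p of 0.973. It was -0.47 without wild-type replicate 1 (limma adjusted p = 0.814) and -0.16 without wild-type replicate 3 (adjusted p = 0.996).

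Atp5k, subunit e of the membrane part, stood at 112, 139 and 166 FPKM in wild type against 158, 171 and 146 FPKM. Its log2 difference was 0.20 (SE 0.145, limma adjusted p = 0.998), and wild-type replicate 3 lay among the knockout values. It was 0.05 without wild-type replicate 1 and 0.34 without wild-type replicate 3 (limma adjusted p = 0.924 and 0.996). The peripheral stalk, Atp5pb, Atp5h, Atp5j and Atp5o, holds the head still while the ring turns, and its 4 log2 differences lay between -0.07 and 0.03. The 5 small membrane subunits Atp5j2, Atp5k, Atp5l, Atp5md and Atp5mpl lay between -0.11 and 0.20, and the 5 genes of the F1 head and its stalk, Atp5a1, Atp5b, Atp5c1, Atp5d and Atp5e, between -0.30 and 0.08. Over the 17 genes of the complex the median was -0.0364, with 5 above 0 and 12 below.

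The proton-carrying c ring is encoded by 3 genes whose mature proteins are the same. Atp5g3 stood at 793, 867 and 903 FPKM in wild type against 840.02, 891 and 769 FPKM, a log2 difference of -0.04 (SE 0.102). Atp5g1 stood at 161, 158 and 187 FPKM in wild type against 154, 204 and 146 FPKM. Atp5g2 stood at 97.1, 109.8 and 102 FPKM in wild type against 104, 113 and 105 FPKM. Atp5g3 was highest and Atp5g2 lowest in every library, and Atp5g3 gave 75.9 ± 0.489% of the summed level in wild type and 75.2 ± 1.36% in knockout (SD, n = 3 each). Atp5g1 and Atp5g2 are among the genes with many shared stretches, and Atp5g3 shared none.

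Libraries of one group lay further apart than the groups did: the mean deviation of the 45 genes from their 6-library means was 0.0100 ± 0.110 in wild type and -0.0100 ± 0.142 in knockout on the log2 scale (SD, n = 3 each). The median SD between replicates was 0.184 on the log2 scale for the 45 genes and 0.132 for all tested genes. The mean deviation of the complex IV genes from their own 6-library mean was -0.141, -0.0306 and 0.204 in wild type against -0.0301, 0.167 and -0.170 in knockout. In complexes III and V, too, wild-type replicate 3 (0.123 and 0.132) and knockout replicate 2 (0.153 and 0.145) were highest and knockout replicate 3 lowest. Complex II and Cycs had -0.0744 and -0.112 in wild-type replicate 3 instead. Of the 45 genes, 19 were highest in wild-type replicate 3 and 18 in knockout replicate 2.

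**Figure D3:**
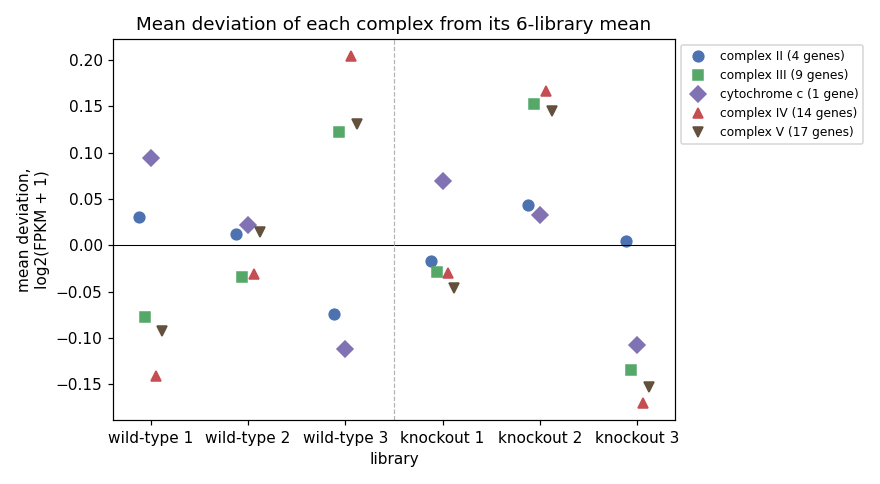
Mean deviation of the tested genes of each complex from their own 6-library mean, in log2(FPKM + 1), for each library. Complexes III, IV and V are high in wild-type replicate 3 and knockout replicate 2 and lowest in knockout replicate 3, while complex II and Cycs are at -0.0744 and -0.112 in wild-type replicate 3.

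This profile went with coding length in most genes. At a limit of 600 bases, set after the values were seen and given with no test, 34 of the 45 genes were short (156 to 507 bases) and 11 long (639 to 1992 bases). The short genes deviated by -0.133, -0.0149 and 0.193 on average in wild type against -0.0340, 0.163 and -0.175 in knockout. The long genes deviated by 0.0448, 0.00844 and -0.0711 in wild type against -0.0273, 0.0754 and -0.0301 in knockout. In wild-type replicate 3, 30 of the 34 short genes and 4 of the 11 long ones lay above their own means. The short genes below their means there were Cycs, Sdhd, Cox7a2l and Atp5g2. Wild-type replicate 3 and knockout replicate 2 were the 2 highest libraries in 28 of the 34 short genes and in 3 of the 11 long ones. Among the 45 genes, which share the same libraries, Spearman's rho of deviation with coding length was 0.697, 0.483 and -0.662 in wild type against -0.110, -0.534 and 0.457 in knockout, as a description.

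**Figure D4:**
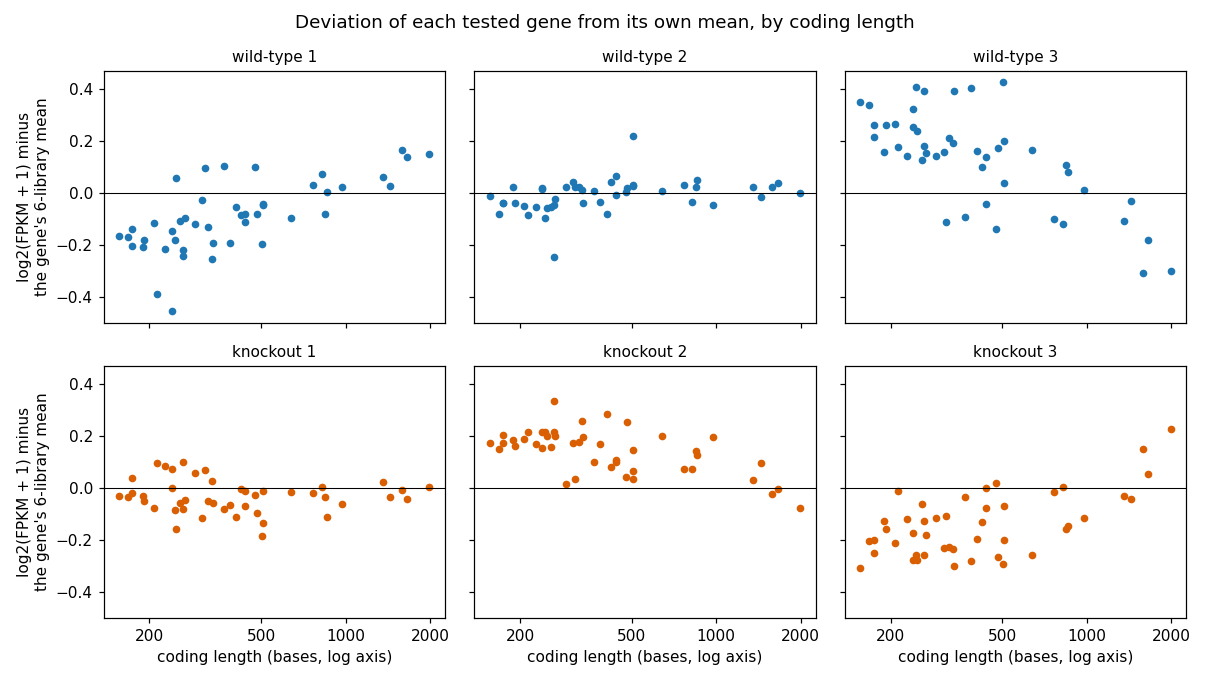
Deviation of each of the 45 genes from its own 6-library mean, in log2(FPKM + 1), against coding length in bases on a log axis, with a panel for each library. Most short genes lie high and most long genes low in wild-type replicate 3 (rho -0.662). The reverse holds for most in wild-type replicate 1 (rho 0.697).

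Other genes followed in weaker form, except in knockout replicate 1, where the sign of rho was opposite. Their rho of deviation with coding length was 0.204, 0.0621 and -0.206 in wild type against 0.101, -0.341 and 0.282 in knockout. The values that follow are medians, while means are given above, and the genes were not matched for level. The 1594 other tested genes with under 600 coding bases had a median deviation of 0.125 in wild-type replicate 3 and 0.0926 in knockout replicate 2, against 0.0109 and 0.0051 for 9863 longer ones. Thick ascending limb markers, 8 of 8 listed with none at 0, summed to 1577, 1691 and 1984 FPKM in wild type against 1378, 2092 and 1847 FPKM. Knockout replicate 2 and wild-type replicate 3 were highest here as well, but knockout replicate 3 exceeded wild-type replicates 1 and 2. Umod made up most of the sum, while Kcnj1 and Egf were highest in knockout replicate 3 and Cldn10 in wild-type replicate 1. Proximal tubule markers, 15 of 15 listed with none at 0, summed to 10085, 10366 and 9900.2 FPKM in wild type against 10775, 9450.4 and 10252 FPKM. That sum was lowest in knockout replicate 2 and wild-type replicate 3, but its genes did not all follow it. Slc27a2 was highest in knockout replicate 2, and Miox, Pck1 and Slc22a8 were highest in wild-type replicate 3. The rest of the list was highest in other libraries. Immune cell markers summed to 171, 159 and 214 FPKM in wild type against 139, 201 and 120 FPKM. Stroma and smooth muscle markers summed to 56.9, 61.4 and 93.2 FPKM in wild type against 52.1, 63.6 and 50.8 FPKM. Both sums were highest in wild-type replicate 3 and knockout replicate 2 and lowest in knockout replicate 3, but not every gene followed. Cd74 made up most of the immune sum. Ptprc was highest in wild-type replicate 1, and its knockout replicate 2 lay below every wild-type library. Of the stroma and smooth muscle list, Col1a1, Col1a2, Col3a1 and Myh11 were highest in wild-type replicates 3 and 2, and Cspg4 in knockout replicate 3. The sums of endothelial and of podocyte markers were highest in wild-type replicates 3 and 2. The part of length, depth, RNA quality or cell makeup in the profile was not tested.

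The comparison of the groups was repeated without the pair of wild-type replicate 3 and knockout replicate 2, 2 libraries against 2. The median log2 difference was then -0.0471 with 13 of the 45 genes above 0, and limma again called 0 of them (smallest adjusted p = 0.782). The knockout lay below the wild type without overlap in 11 genes (24.4%, against 31.5% of all tested genes) and above it in 2, Atp5k and Cox6b2 (4.44%, against 6.55%). These shares rest on 2 libraries a group, which all 45 genes have in common. Their distance from the shares of all tested genes was not tested. Without knockout replicate 2 alone, 8 genes lay below (17.8%, against 23.9% of all tested genes) and 0 above (4.23% of all tested genes). With library medians equalised, 3 lay above, Atp5pb, Uqcrc1 and Uqcrfs1 (6.67%, against 4.9%), and 0 below (5.1% of all tested genes). With the trend on transcript length and GC content removed from each library, Atp5k, Cox6b2 and Cox6c lay above (6.67%, against 5.83%) and Atp5d below (2.22%, against 6.18%), the median was 0.0250, and 0 were called (limma, smallest adjusted p = 0.826). Atp5d, Atp5k and Cox6b2 then had unadjusted p-values of 0.0468, 0.0120 and 0.00864 in limma.

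Genes that build the complexes did not pass the test either. limma called 0 of 4 assembly factors of complex II, 0 of 6 of complex III, 0 of 25 tested of complex IV and 0 of 5 assembly and regulatory genes of complex V, with median log2 differences of -0.0438, -0.0528, 0.00602 and 0.0061. Sdhaf2, which helps attach FAD to SDHA, had -0.11, and Sdhaf4, another complex II factor, -0.14. Bcs1l, which inserts the Rieske protein, had -0.13, and Lyrm7, a chaperone of the same protein, 0.06. Cox16, a complex IV factor, had -0.14. Atpif1, the inhibitor of ATP synthase, had 0.06, and Tmem70, which helps assemble it, -0.04. Fastkd3, a mitochondrial RNA-binding protein, was the 1 gene of these 4 lists whose groups did not overlap (2.01% of all tested genes lay that way), at 3.81, 3.53 and 3.40 FPKM in wild type against 4.401, 4.33 and 4.12 FPKM (log2 difference 0.21, limma adjusted p = 0.960). Ndufa4, a complex IV subunit that the symbol rule misses, had a log2 difference of -0.03, and its relative Ndufa4l2 -0.25.

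Of 20 tested regulators of mitochondrial biogenesis limma called 0, with 6 above 0, 14 below and a median log2 difference of -0.0485, close to the -0.0399 of all tested genes. Gabpb1, the partner of GABPA, stood at 5.40, 4.44 and 5.22 FPKM in wild type against 3.82, 4.31 and 3.69 FPKM, a log2 difference of -0.28 (limma adjusted p = 0.942). Mef2a, a transcription factor of muscle and other tissues, had a log2 difference of -0.20. Gabpb1, Mef2a and the coactivator Pprc1 were the 3 of 20 whose knockout values all lay below the wild-type values, which held for 8.57% of all tested genes. Nrf1, whose binding letters are shown above, stood at 5.51, 4.76 and 5.97 FPKM in wild type against 4.26, 4.95 and 4.71 FPKM, and overlapped.

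Genes of general mitochondrial proteins were listed for comparison. limma called 0 of 20, Cox4i1, itself one of the 45, among them, with 9 above 0, 11 below and a median log2 difference of -0.00845. Timm23, a channel for protein import, stood at 66.1 FPKM in knockout replicate 1 and at 39.4 to 45.6 FPKM in the other libraries (log2 difference 0.28, and 0.09 without knockout replicate 1). Vdac1, the pore of the outer membrane, had a log2 difference of 0.10.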

How the data were processed

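A single FPKM table deposited by the authors was the source of all values. Genome builds GRCm38 and mm10 are named in the submitters' processing notes; for aligner, quantifier, annotation, strand and read type, no source used here gives a name. Per the labels' protocols, RNA was isolated with an RNeasy kit and sequenced after SMARTer mRNA-Seq preparation. Knockout columns begin with A8 and were matched to knockout titles by that ending and their number. No column was left unused.

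log2(FPKM + 1) was fitted with limma 3.58.1 (R 4.3.3) by group alone, with trended empirical Bayes, two-sided, with Benjamini-Hochberg adjustment over 12174 genes with a mean of at least 1 FPKM and a threshold of 0.05. The code was tested on simulated data. Lengths and shared 75-base stretches come from GENCODE M21, coordinates and promoters from RefSeq (GRCm38.p6). Coding length was known for 94.5% of tested genes. Alternatives changed pseudocount, filter, scaling, variance model, replicate block and libraries (14 planned, 3 added after seeing the data). Fold changes are given for the 2 genes per complex with the smallest p, the 2 with the highest level, and 2 per further list with the smallest p; values per library also for Sdh genes, Cyc1, Cycs, isoform sets and the gene of widest spread. Other names were chosen after their values were seen. Members and lists were chosen with earlier results of these data known.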

Additional observations from a re-analysis of the deposited data

How the results depend on the processing

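No gene of complexes II to V was called under any of the 14 planned and 3 added alternatives. Their estimates are small, and many changed sign: 26 of 45 without wild-type replicate 3, 22 without knockout replicate 3 and 12 with library sums equalised.

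With library sums equalised the log2 difference became 0.0415 for Cycs, 0.00834 for Atp5g3, 0.0140 for Ndufa4, 0.0129 for Sdhb, 0.0347 for Sdhc, 0.0160 for Uqcr10 and 0.0253 for Uqcrh. With library medians equalised it became 0.0533 for Cycs, 0.0202 for Atp5g3, 0.0259 for Ndufa4, 0.0248 for Sdhb, 0.0465 for Sdhc, 0.0106 for Tmem70, 0.0279 for Uqcr10 and 0.0371 for Uqcrh. Under quantile normalization it became 0.0182 for Cycs, 0.0642 for Atp5g3, 0.0597 for Ndufa4, 0.00538 for Uqcr10 and 0.0229 for Uqcrh. With the length and GC trend removed, with or without the replicate block, it became 0.0476 for Cycs, 0.0145 for Atp5g3, 0.0158 for Ndufa4, 0.0273 for Sdhb, 0.0269 for Sdhc, 0.000859 for Tmem70, 0.0214 for Uqcr10 and 0.0272 for Uqcrh. Leaving out both wild-type replicate 3 and knockout replicate 2 gave -0.0223 for Atp5b, -0.0109 for Atpif1, 0.00624 for Uqcr10 and -0.0147 for Uqcrfs1. The complex II median moved to 0.0642 with medians equalised and to -0.0417 when that pair was left out.

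With single libraries left out the ranges were -0.0596 to 0.0498 for Cycs, -0.0533 to 0.183 for Atp5b, -0.0891 to 0.0203 for Atp5g3, -0.0189 to 0.120 for Atpif1, -0.232 to 0.0628 for Cox6a1, -0.122 to 0.0403 for Ndufa4, -0.0247 to 0.201 for Sdha, -0.112 to 0.0389 for Sdhb, -0.0459 to 0.0226 for Sdhc, -0.126 to 0.0949 for Uqcr10, -0.125 to 0.0667 for Uqcrh and -0.214 to 0.0962 for Uqcrq. Without a change of sign, they were -0.469 to -0.157 for Atp5d, 0.0542 to 0.335 for Atp5k, 0.0887 to 0.347 for Cox6b2 and -0.296 to -0.0580 for Cox7a2. The cause of these shifts was not tested.

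Genes higher in knockout without overlap numbered 3 with medians equalised, 3 with the trend removed (also with the block), 2 when the pair was left out and 0 to 2 with single libraries left out. Those lower without overlap numbered 11 when the pair was left out, 1 with the trend removed (also with the block) and 0 to 8 with single libraries left out. Of all tested genes 6.55% lay above and 31.5% below when the pair was left out, and 3.19% to 6.74% above and 11.7% to 23.9% below with single libraries left out. Fewer libraries overlap less often by construction. Of all tested genes, limma called 0 (629 at an unadjusted p under 0.05), 5 when the pair was left out and 0 to 5 with single libraries left out. The 5 were globin genes, called in both settings that lack knockout replicate 2.

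The replicate numbers pair no samples by label, and same-numbered deviations correlated at 0.307, -0.215 and -0.321. The fit with a replicate block called 0 genes (417 at an unadjusted p under 0.05) and left the Cycs estimate at -0.00296. With no read totals, the precision of low genes such as Cox4i2 and Cox8b cannot be given.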
